A study of Mus musculus with 3 samples.

Results

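The Ms4a family (membrane-spanning 4-domains, subfamily A) was followed gene by gene across the cell types of mouse blood. Its 10 members described here are Ms4a1, Ms4a2, Ms4a3, Ms4a4b, Ms4a4c, Ms4a6b, Ms4a6c, Ms4a6d, Ms4a7 and Ms4a8a, chosen by symbol from the 32285 genes of the count matrices. The cells were peripheral blood mononuclear cells, profiled by droplet single-cell RNA-seq with a 3′ kit that counts molecules as UMIs (unique molecular identifiers). One library, without replicates, was made for each of 3 groups of female C57BL/6 mice. The young mice were 8 weeks old and the aged mice 16 months old, both labelled as untreated, and control mice received saline injections by the methods. The aged-GA mice were 16 months old and received glycyrrhizic acid (GA), a saponin of licorice root, through the tail vein for 1 month. Young mice were bought and aged mice were reared in the laboratory, so age and origin cannot be told apart, and the study names several mice per group without saying how they were combined into its library.

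MS4A proteins cross the membrane several times and sit beside receptors, whose signalling some of them tune. Ms4a1 encodes CD20, the B cell surface protein. Ms4a2 encodes the beta chain of the high-affinity IgE receptor of mast cells and basophils. Ms4a3 is a gene of granulocyte and monocyte progenitors. Ms4a4b and its relatives are known from T cells, and Ms4a6c, Ms4a6d, Ms4a7 and Ms4a8a from monocytes and macrophages.

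After filtering, 8851 young, 10238 aged and 12648 aged-GA cells remained, with median depths of 4671, 3810.5 and 4752 UMIs. Cells were assigned to classes by marker genes, none of which is an Ms4a gene, and each class is called a gate. The fraction of cells left out as mixed was 5.999% in the young library, 15.8% in the aged and 14.1% in the aged-GA. These cells carried markers of an unrelated class, or had equal fractions of markers for their 2 leading classes. Although the labels name mononuclear cells, the gates included 744 neutrophil-like cells in the aged library and 486 in the aged-GA library, against 12 in the young. The young library also held only 2 classical-monocyte-like cells and no basophil-like cell, so values for those gates come from the aged and aged-GA libraries. The libraries shared between 50 and 62 cell barcodes per pair. Levels are UMIs per 1000000 UMIs of the gate (CPM), not scaled by gene length because the kit counts transcript ends, with exact Poisson 95% intervals in brackets. With 1 library per group no test was possible: all intervals cover counting error only and say nothing of differences between mice. Fewer RNA molecules per cell and fewer expressing cells are not separated by these sums.

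All 19 genes with an Ms4a symbol lay in 1 cluster of 679 kb on chromosome 19 (GRCm38, GENCODE annotation, 10962293 to 11640851), which held 22 protein-coding genes in all. Ms4a8a (ENSMUSG00000024730, 11067471 to 11081102), Ms4a1 (ENSMUSG00000024673, 11249675 to 11266241) and Ms4a7 (ENSMUSG00000024672, 11321039 to 11336146) lay on the minus strand in the first part of it. Ms4a4c (ENSMUSG00000024675, 11404770 to 11427246), Ms4a4b (ENSMUSG00000056290, 11443553 to 11467055), Ms4a6c (ENSMUSG00000079419, 11469366 to 11482192) and Ms4a6b (ENSMUSG00000024677, 11516512 to 11531256) followed each other on the plus strand. Ms4a6d (ENSMUSG00000024679, 11586604 to 11604849), Ms4a2 (ENSMUSG00000024680, 11615523 to 11623719) and Ms4a3 (ENSMUSG00000024681, 11629496 to 11640851) closed the cluster on the minus strand. Neighbours in the cluster were often read in different cells: Ms4a4b, the T cell member, lies next to Ms4a6c, the monocyte member. No member overlapped another gene on its own strand. Ms4a1, Ms4a4c, Ms4a6b and Ms4a6c each overlapped an antisense gene.

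**Figure D1:**
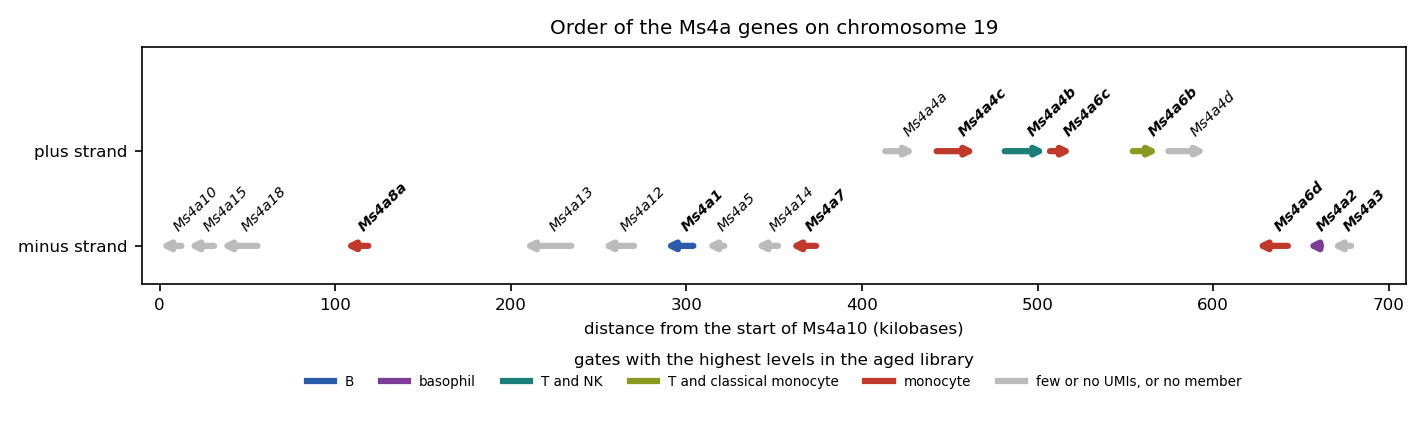
Map of the Ms4a cluster, with distance from the start of Ms4a10 in kilobases on the x axis and the strand of each gene on the y axis. Colours mark the gates in which a member had its highest levels in the aged library, and genes of myeloid and lymphoid gates are interspersed along the cluster.

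The Ms4a4 and Ms4a6 groups hold close copies, and the 3′ ends on which UMIs were counted share some sequence. Of the 50-base words in the last 500 bases of the Ms4a4c transcripts, 11.1% also occurred in another Ms4a transcript, mostly Ms4a4b. The share was 6.10% for Ms4a6c, 3.95% for Ms4a6b, 3.53% for Ms4a4b and 0 for the other 6 members. A small part of the reads of these 4 genes could therefore belong to a relative, and how such reads were counted is not given in the sources used here.

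The 250 bases before the annotated start were read from the RefSeq table (GRCm38.p6), which matched 8 of the 10 members. The table held no entry for Ms4a1 or Ms4a6d. Its starts of Ms4a4c and Ms4a6b lie inside the GENCODE genes. The pairs Ms4a4b with Ms4a4c and Ms4a6b with Ms4a6c are shown because their upstream letters were far more alike than those of other matched members. Their levels differed between cell types. In a local alignment Ms4a4b and Ms4a4c had 117 identical letters in 133 columns (88.0%), and the aligned stretch, from −136 to −5 and from −133 to −1, is in capitals. Ms4a4b is at chr19:11443308-11443557 and Ms4a4c at chr19:11407411-11407660, both on the plus strand.
Ms4a4b: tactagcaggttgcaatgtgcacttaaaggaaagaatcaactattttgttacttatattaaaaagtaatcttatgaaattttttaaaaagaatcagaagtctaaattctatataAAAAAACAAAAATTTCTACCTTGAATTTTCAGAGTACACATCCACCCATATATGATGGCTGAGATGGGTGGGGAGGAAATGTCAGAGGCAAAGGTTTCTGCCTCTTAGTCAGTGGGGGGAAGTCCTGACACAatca
Ms4a4c: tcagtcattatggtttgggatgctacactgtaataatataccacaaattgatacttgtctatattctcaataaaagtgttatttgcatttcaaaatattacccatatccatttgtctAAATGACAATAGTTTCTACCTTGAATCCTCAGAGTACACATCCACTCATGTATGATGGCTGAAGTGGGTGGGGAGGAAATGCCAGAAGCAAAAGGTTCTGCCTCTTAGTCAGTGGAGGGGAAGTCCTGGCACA

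Ms4a6b (chr19:11518309-11518558, plus strand) and Ms4a6c (chr19:11469118-11469367, plus strand) had 148 identical letters in 180 columns (82.2%). The third-highest of the 28 pairs had 26 identical letters and the median pair 14.5. Capitals mark the letters AGGAAG, a core of ETS factor sites, and GAAANNGAA, the repeat read by interferon regulatory factors, on either strand. Ms4a6b had 3 ETS matches and Ms4a6c had 1, and each had 1 match to the interferon repeat.
Ms4a6b: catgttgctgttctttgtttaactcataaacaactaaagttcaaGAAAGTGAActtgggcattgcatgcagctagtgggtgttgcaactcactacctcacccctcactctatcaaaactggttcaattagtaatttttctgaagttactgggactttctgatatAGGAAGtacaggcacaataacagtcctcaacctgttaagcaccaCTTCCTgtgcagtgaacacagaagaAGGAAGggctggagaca
Ms4a6c: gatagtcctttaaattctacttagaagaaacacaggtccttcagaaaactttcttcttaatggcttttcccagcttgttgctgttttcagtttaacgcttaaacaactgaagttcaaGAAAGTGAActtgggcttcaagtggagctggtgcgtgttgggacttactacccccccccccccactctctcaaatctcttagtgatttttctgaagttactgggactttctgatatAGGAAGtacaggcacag

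Ms4a2 (chr19:11623720-11623969, minus strand) is shown because its upstream bases held 3 matches to AGATAA, the letters of GATA factors, in capitals below on either strand.
Ms4a2: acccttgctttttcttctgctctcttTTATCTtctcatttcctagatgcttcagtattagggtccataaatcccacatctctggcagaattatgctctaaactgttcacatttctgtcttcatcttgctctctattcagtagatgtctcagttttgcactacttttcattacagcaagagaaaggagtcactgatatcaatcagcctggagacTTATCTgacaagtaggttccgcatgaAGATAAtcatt

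Across 32851 promoters of the same length, 29.5% held AGGAAG, 9.99% AGATAA and 7.13% GAAANNGAA. Of the 8 matched members, 4 held the first, only Ms4a2 the second, and Ms4a6b, Ms4a6c and Ms4a7 the third. TGTGGT, the RUNX letters, was in 14.1% of promoters and in Ms4a4c among the members, and CAGGTG, an E-box, was in 17.2% and in no member. No match of 1 motif overlapped a match of another in the printed bases, and a match describes the letters and is no evidence of binding.

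In B cells, Ms4a1 made up most of the family's RNA. Its level in the B gate was 711 CPM [693–729] in the young library, 907 [891–923] in the aged and 859 [847–872] in the aged-GA, from 6084, 12412 and 19375 UMIs. The 3 intervals did not overlap, the young library being the lowest and the aged the highest. After thinning every cell to 500 UMIs, an Ms4a1 UMI was kept by 28.3% of B cells in the young library, 34.0% in the aged and 32.5% in the aged-GA, and without thinning 82.4%, 87.7% and 91.4% had one. Outside the B gate the level was between 0 and 13.5 CPM, apart from plasma cells. In the aged plasma gate of 31 cells, Ms4a1 was at 66.5 CPM [46.6–92.1], a log2 ratio of 3.77 [3.2995–4.28] in favour of B cells. In that comparison of gates 45.5% of all genes were at least 2-fold higher in B cells, and the median gene was 0.89 higher on the log2 scale. Cd81, a tetraspanin on the B cell surface, went from 230 CPM in the young to 178 in the aged and 222 in the aged-GA library.

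Ms4a2 was highest in basophils, blood cells that carry the IgE receptor. That gate held 68.0% of its 328 UMIs over all kept cells in the aged library and 55.8% of 120 in the aged-GA. These totals include cells left out of the gates as mixed, and neutrophils held 11 and 3 of the UMIs. In the basophil gate Ms4a2 was at 782 CPM [682–891] in 118 aged cells and at 838 [649–1064] in 32 aged-GA cells, from 223 and 67 UMIs. The 2 intervals overlapped. An Ms4a2 UMI was seen in 75.4% of the aged and 81.3% of the aged-GA basophils. Neutrophils, the next gate, were at 5.27 and 2.02 CPM, and B cells at 0, 0.585 and 0. Fcer1a, the IgE-binding chain and a marker of the gate, was at 536 CPM [455–628] and 550 [400–739] in the same basophils. Fcer1g, the signalling chain that other receptors also use, was at 2580 and 1988 CPM there, but at 3440 and 2792 in classical monocytes and at 3332, 3204.5 and 3147 in NK cells. Ms4a3 was nearly undetected, with 0, 6 and 4 UMIs over all kept cells of the young, aged and aged-GA libraries.

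T cells of every kind carried both Ms4a4b, a T cell member that associates with costimulatory receptors, and Ms4a6b. In naive CD8 T cells Ms4a4b was at 635 CPM [621–650] in the young, 898 [864–932] in the aged and 994 [972–1020] in the aged-GA library. In memory CD8 T cells it was at 1193 [1100–1293], 1732 [1672–1795] and 1512 [1475–1551]. The memory gate stood above the naive gate in each library, by log2 ratios of 0.91 [0.79–1.03], 0.95 [0.87–1.02] and 0.61 [0.56–0.65], while the median gene differed by 0.12, 0.22 and 0.16. In CD4 T cells Ms4a4b was at 791, 1137 and 1139 CPM in the naive gate and at 1488, 1621 and 1617 in the memory gate. The ratio of memory over naive CD4 was 0.91, 0.51 and 0.51 on the log2 scale. Regulatory T cells were at 1049, 1298 and 1476 CPM and γδ T cells at 684, 1048 and 1176. In the order of the aged library memory CD8 came first and memory CD4 next, with overlapping intervals. In the young and aged-GA libraries memory CD4 came first and memory CD8 next. The log2 ratios of memory CD8 over memory CD4 there were −0.32 [−0.54–−0.09] and −0.10 [−0.17–−0.02].

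Ms4a6b, like Ms4a4b, was higher in naive CD4 than in naive CD8 cells. Naive CD4 T cells held Ms4a6b at 738, 712 and 754 CPM and naive CD8 T cells at 495, 477 and 579. The log2 ratio of naive CD8 over naive CD4 was −0.57, −0.58 and −0.38 for Ms4a6b and −0.32, −0.34 and −0.20 for Ms4a4b. Memory CD4 cells held Ms4a6b at 941, 680 and 711 CPM and memory CD8 cells at 513, 564 and 665. Its log2 ratios of memory CD8 over memory CD4 were −0.87, −0.27 and −0.10, the last with an interval that held 0. NK cells separated both genes. Ms4a4b was at 978, 917 and 1025 CPM in NK cells. Among T cell gates only naive CD8 cells were lower in the aged and aged-GA libraries, at 898 and 994 CPM. In the young library naive CD8, γδ and naive CD4 cells and T cells of no subset were lower, at 635, 684, 791 and 834 CPM. Ms4a6b was at 86.8, 97.5 and 108 CPM in NK cells. The log2 ratio of NK over memory CD8 cells was −2.56, −2.53 and −2.62 for Ms4a6b and −0.29, −0.92 and −0.56 for Ms4a4b. At least 2-fold lower in NK than memory CD8 cells were 3.07%, 3.41% and 5.16% of all genes. Ms4a6b was also present in monocytes, at 587 and 694 CPM in the classical gate and 228, 183 and 173 in the nonclassical, where Ms4a4b was at 51.9 CPM or less.

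**Figure D2:**
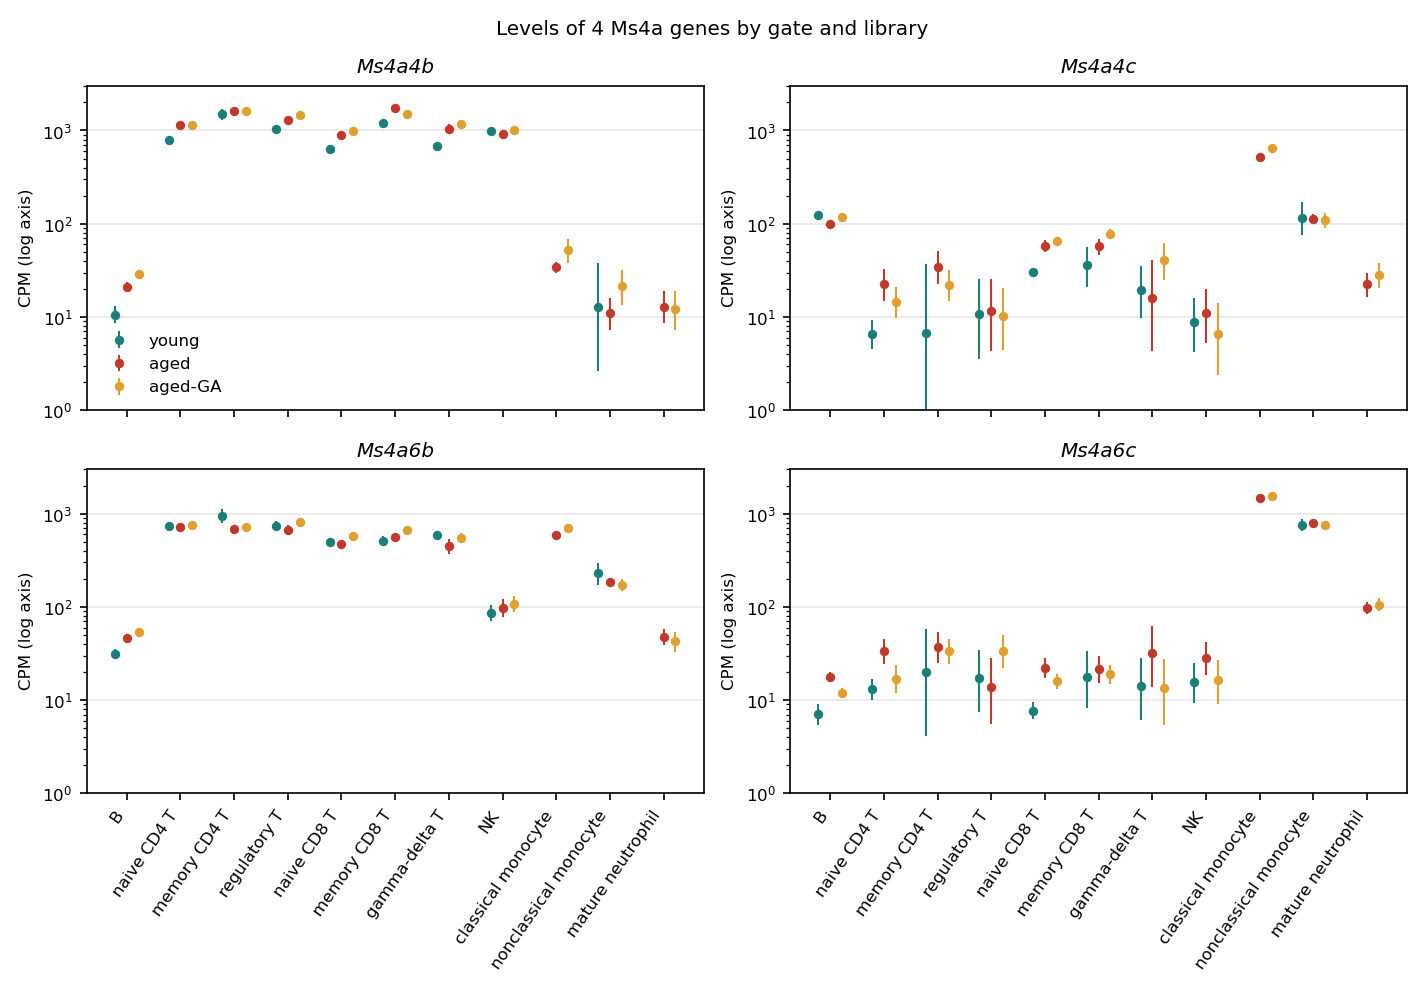
Levels in CPM (y axes, log scale) of Ms4a4b, Ms4a4c, Ms4a6b and Ms4a6c in each gate and library, 1 point per library, with exact Poisson 95% intervals that cover counting error only. Ms4a4b is high in T and NK gates and low in monocytes, Ms4a6b is high in T cells and classical monocytes but about 100 CPM in NK cells, and Ms4a6c is highest in monocytes.

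Ms4a4c, whose upstream bases resemble those of Ms4a4b (above), had a different distribution. In B cells it was at 124 CPM [116–131] in the young library, 99.8 [94.6–105] in the aged and 120 [115–124] in the aged-GA, where Ms4a4b was at 10.6, 21.0 and 29.0. Its highest level was in classical monocytes, at 522 [504–540] in the aged and 642 [591–695] in the aged-GA library. Nonclassical monocytes, which patrol the vessel wall, were at 116, 112 and 109 CPM and did not separate from B cells in any library, with log2 ratios of B over nonclassical of 0.09, −0.17 and 0.13 whose intervals held 0. Among T cells Ms4a4c was higher in the CD8 than in the CD4 lineage. Naive CD8 cells were at 30.1, 57.6 and 66.0 CPM and naive CD4 cells at 6.61, 22.5 and 14.5. The log2 ratio of naive CD8 over naive CD4 was 2.19 [1.66–2.77], 1.35 [0.77–1.98] and 2.18 [1.65–2.76], where 2.07%, 1.66% and 2.44% of all genes were at least 2-fold higher in the CD8 gate. NK cells held little, at 8.77, 11.0 and 6.56 CPM.

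Ms4a6c was the most abundant member in monocytes. In classical monocytes it was at 1475 CPM [1446–1506] in the aged and 1529 [1450–1611] in the aged-GA library, from 9399 and 1413 UMIs. In nonclassical monocytes it was at 754 [646–874], 791 and 763 in the young, aged and aged-GA libraries, and the values overlapped. Neutrophils were at 97.8 and 106 CPM. B cells were at 7.13, 17.6 and 11.9 and NK cells at 15.8, 28.5 and 16.4. Its close copy Ms4a6d was at 223 [211–234] and 187 CPM in classical monocytes of the aged and aged-GA libraries and at 30.2 [12.1–62.1], 64.7 and 46.4 in nonclassical monocytes, the young value resting on 7 UMIs. In lymphocyte gates Ms4a6d was between 0 and 19.9 CPM.

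Among gates of at least 30 cells, Ms4a8a and Ms4a7 were also highest in classical monocytes of the aged and aged-GA libraries, at lower levels. Ms4a8a was at 151 and 115 CPM in the classical gate, from 962 and 106 UMIs, and at 12.9, 14.8 and 2.78 in the nonclassical gate, from 3, 35 and 3 UMIs. Ms4a7 was at 12.7 and 6.49 CPM in the classical gate, from 81 and 6 UMIs. In the nonclassical gate Ms4a7 was at 3.81 and 2.78 CPM in the aged and aged-GA libraries, from 9 and 3 UMIs. The intervals of the 2 gates overlapped in the aged-GA library. Classical stood above nonclassical monocytes by a log2 ratio of 3.35 [2.86–3.88] for Ms4a8a in the aged library and 5.37 [3.78–7.67] in the aged-GA. The same ratio was 2.21 and 2.55 for Ms4a4c, 1.78 and 2.01 for Ms4a6d, 1.68 and 2.0002 for Ms4a6b, and 0.90 and 1.00 for Ms4a6c. All genes at least 2-fold higher in the classical gate made up 7.57% in the aged and 4.91% in the aged-GA library, and the median gene of the aged library was at −0.14. All 5 of these members were higher in classical monocytes, Ms4a8a the most and Ms4a6c the least. The 2 classical-monocyte-like cells of the young library held 34 Ms4a6c, 22 Ms4a4c, 12 Ms4a6b and 12 Ms4a6d UMIs.

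**Figure D3:**
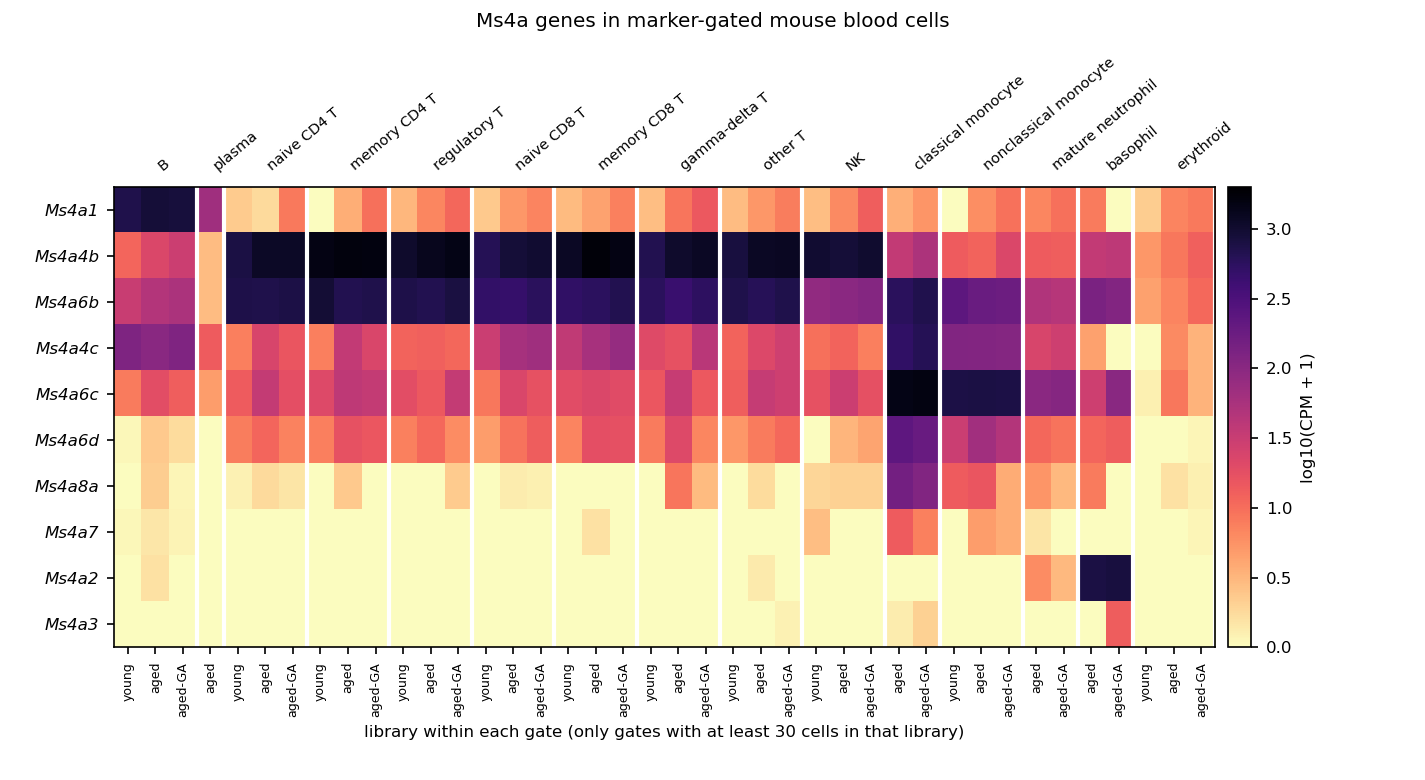
Levels of the 10 members (y axis) in each library of each gate with at least 30 cells (x axis), with colour as log10(CPM + 1). The highest levels of the members lie in different gates: Ms4a1 in B cells, Ms4a2 in basophils, Ms4a4b in T and NK cells, and Ms4a6c, Ms4a6d, Ms4a7 and Ms4a8a in monocytes.

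Summed over its members, the family was at 3008 and 3230 CPM in classical monocytes of the aged and aged-GA libraries, the highest of the gates. Memory CD8 T cells were at 1768, 2396 and 2297 CPM, NK cells at 1094, 1063 and 1172, B cells at 884, 1095 and 1075, and basophils at 1003 and 1113. A member's level over the whole library depends on how many cells each gate held. Ms4a6c was at 15.5, 315 and 69.9 CPM over all kept cells of the young, aged and aged-GA libraries, while classical monocytes numbered 2, 638 and 95. Ms4a1 was at 152, 291 and 321 CPM, and Ms4a4b at 513, 335 and 477. Of all Ms4a4c UMIs of kept cells, those left out of the gates included, 55.6% lay in B cells in the young and 45.3% in the aged-GA library. In the aged library 45.5% lay in classical monocytes.

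The comparison of aged with young cells asks how age changed each member within a gate. With at least 100 UMIs over both libraries, 31 pairs of member and gate could be compared, covering 6 members. Aged was at least 2-fold higher in 5 of them and at least 2-fold lower in 0, where over the same 10 gates 5.87% of all pairs of gene and gate were that much higher and 0.972% that much lower. Of these 5, Ms4a6c had 4. In B cells it went from 7.13 CPM [5.45–9.15] to 17.6 [15.5–19.98], a log2 ratio of 1.31 [0.89–1.74]. In naive CD8 T cells it went from 7.73 to 22.2 CPM (1.53 [1.05–1.99]), in naive CD4 T cells from 13 to 33.8 (1.38 [0.77–1.97]), and in the T cells of no subset from 12.2 to 33.1 (1.44 [1.03–1.85]). The share of all genes at least 2-fold higher in aged cells was 5.93% in B, 3.68% in naive CD8, 4.16% in naive CD4 and 11.2% in other T cells, and the median gene was 0.29, 0.24, 0.24 and 0.38 higher. The last of the 5 was Ms4a6d in nonclassical monocytes, at 1.10 [0.02–2.44] on 7 young UMIs, where 4.84% of genes were that much higher. In lymphocyte gates with fewer UMIs, the log2 ratio of Ms4a6c was −0.35 in regulatory T, 0.26 in memory CD8, 0.90 in memory CD4, 1.17 in γδ T and 0.85 in NK cells, each with an interval that held 0. In nonclassical monocytes, where it is abundant, Ms4a6c differed by only 0.07 [−0.15–0.30].

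In the B, naive CD4 and naive CD8 gates, Lyz2 was also higher in the aged than in the young library. It rose as well in gates where the Ms4a6c interval held 0. Its UMIs went from 1 in 94 regulatory T cells to 44 in 112, and from 0 in 75 memory CD8 cells to 189 in 360. In NK cells they went from 5 in 331 cells to 114 in 260. Lyz2, the lysozyme of myeloid cells and a marker of the monocyte gate, was at 1.64, 132 and 36.6 CPM in B cells of the young, aged and aged-GA libraries. In naive CD4 T cells it was at 0.640, 89.3 and 29.6, and in naive CD8 T cells at 0.924, 86.7 and 22.4. In classical monocytes it was at 25784 and 28522 CPM. Fcer1g, also a myeloid gene, went from 3.39 to 49.3 CPM in B cells between young and aged and from 11.3 to 29.4 in naive CD8 T cells, but from 113 to 73.0 in memory CD8 T cells. Of the summed Ms4a6c and Lyz2 UMIs of B cells, Ms4a6c made up 81.3% in the young library, 11.8% in the aged and 24.5% in the aged-GA. It made up 89.3%, 20.4% and 41.6% in naive CD8 T cells and 5.41% and 5.09% in classical monocytes. In nonclassical monocytes Ms4a6c made up 9.201%, 11.46% and 10.39% of the young, aged and aged-GA sums. The aged value lay inside the interval of aged B cells, 10.39% to 13.22%. In neutrophils Ms4a6c made up 1.997% in the aged and 2.592% in the aged-GA library. The summed level of the 11 classical-monocyte markers, a list with genes that lymphocytes also express, was 307, 571 and 402 CPM in B cells, with 7, 11 and 11 found, and 508, 942 and 881 in naive CD8 T cells. That sum was 827, 1185 and 1274 CPM in memory CD8 T cells and 999, 935 and 1120 in NK cells. The summed level of the 11 neutrophil markers in B cells was 38.2, 330 and 229 CPM, with 8, 11 and 11 of them found. In naive CD8 T cells the neutrophil sum was 38.8, 211 and 157 CPM, with 7, 10 and 11 found. Barcodes of under 200 genes and mostly haemoglobin UMIs held Ms4a6c at 0, 75.5 and 21.3 CPM outside haemoglobin, and held Ms4a1 at 23.8, 80.7 and 101. The same barcodes held Ms4a6b at 10.6, 114 and 148 CPM and Ms4a4b at 39.7, 83.3 and 113. The part of RNA from other cells in the Ms4a6c values of lymphocytes was not tested.

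**Figure D4:**
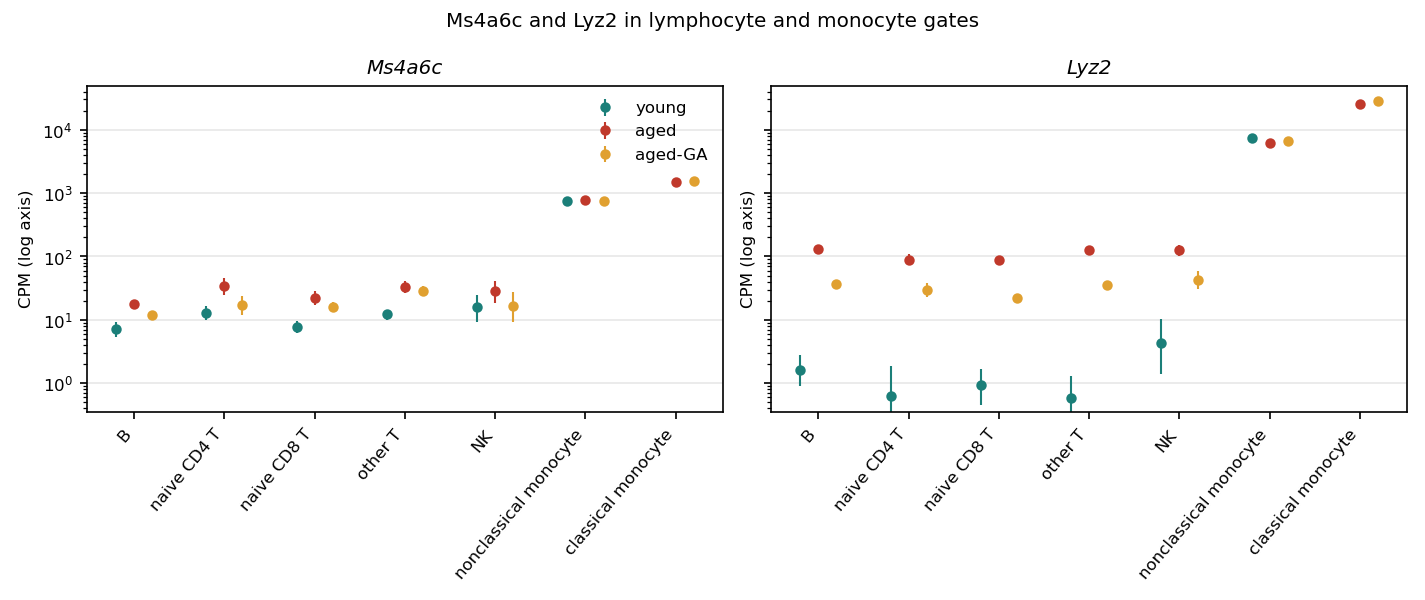
Levels of Ms4a6c and Lyz2 in CPM (y axes, log scale) by gate (x axes), 1 point per library with exact Poisson 95% intervals that cover counting error only. In the lymphocyte gates plotted the aged points lie above the young ones for both genes, with overlapping intervals for Ms4a6c in NK cells, and in B cells Lyz2 is at 132 CPM in the aged against 1.64 in the young library.

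The other members stayed under 2-fold in every gate compared, apart from Ms4a6d in nonclassical monocytes. Ms4a1 in B cells was higher in the aged library by 0.35 [0.31–0.40] on the log2 scale, close to the 0.29 of the median gene. Ms4a4b was counted in 9 gates, and its ratio lay above 0 with its interval in 7 and below 0 in 0. The median gene was also above 0 in these gates. It was at 0.24 in naive CD4, naive CD8 and memory CD8, 0.21 in regulatory T and 0.38 in other T cells. In γδ T, NK and memory CD4 cells it was at 0.04, 0.05 and 0.06. The share of all genes with an interval clear of 0 was not computed. The highest ratio of Ms4a4b was 0.98 [0.64–1.34] in B cells, where the gene was low, at 10.6 and 21.0 CPM. It was 0.52 in naive CD4, 0.50 in naive CD8, 0.54 in memory CD8 and 0.62 in γδ T cells, against −0.09 [−0.22–0.04] in NK cells and 0.12 [−0.08–0.34] in memory CD4 cells. In naive CD8 cells the upper quartile of all genes was 0.51. Ms4a6b was counted in 10 gates. Its interval lay above 0 in B cells only, at 0.56 [0.36–0.78], where the gene was low, at 31.2 and 46.1 CPM. It lay below 0 in 3, the lowest being memory CD4 cells at −0.47 [−0.74–−0.19], with 31 young cells. Ms4a4c was 0.93 [0.66–1.20] in naive CD8 T cells and −0.31 [−0.43–−0.19] in B cells. The lower level in aged B cells stood against a median gene that was 0.29 higher.

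**Figure D5:**
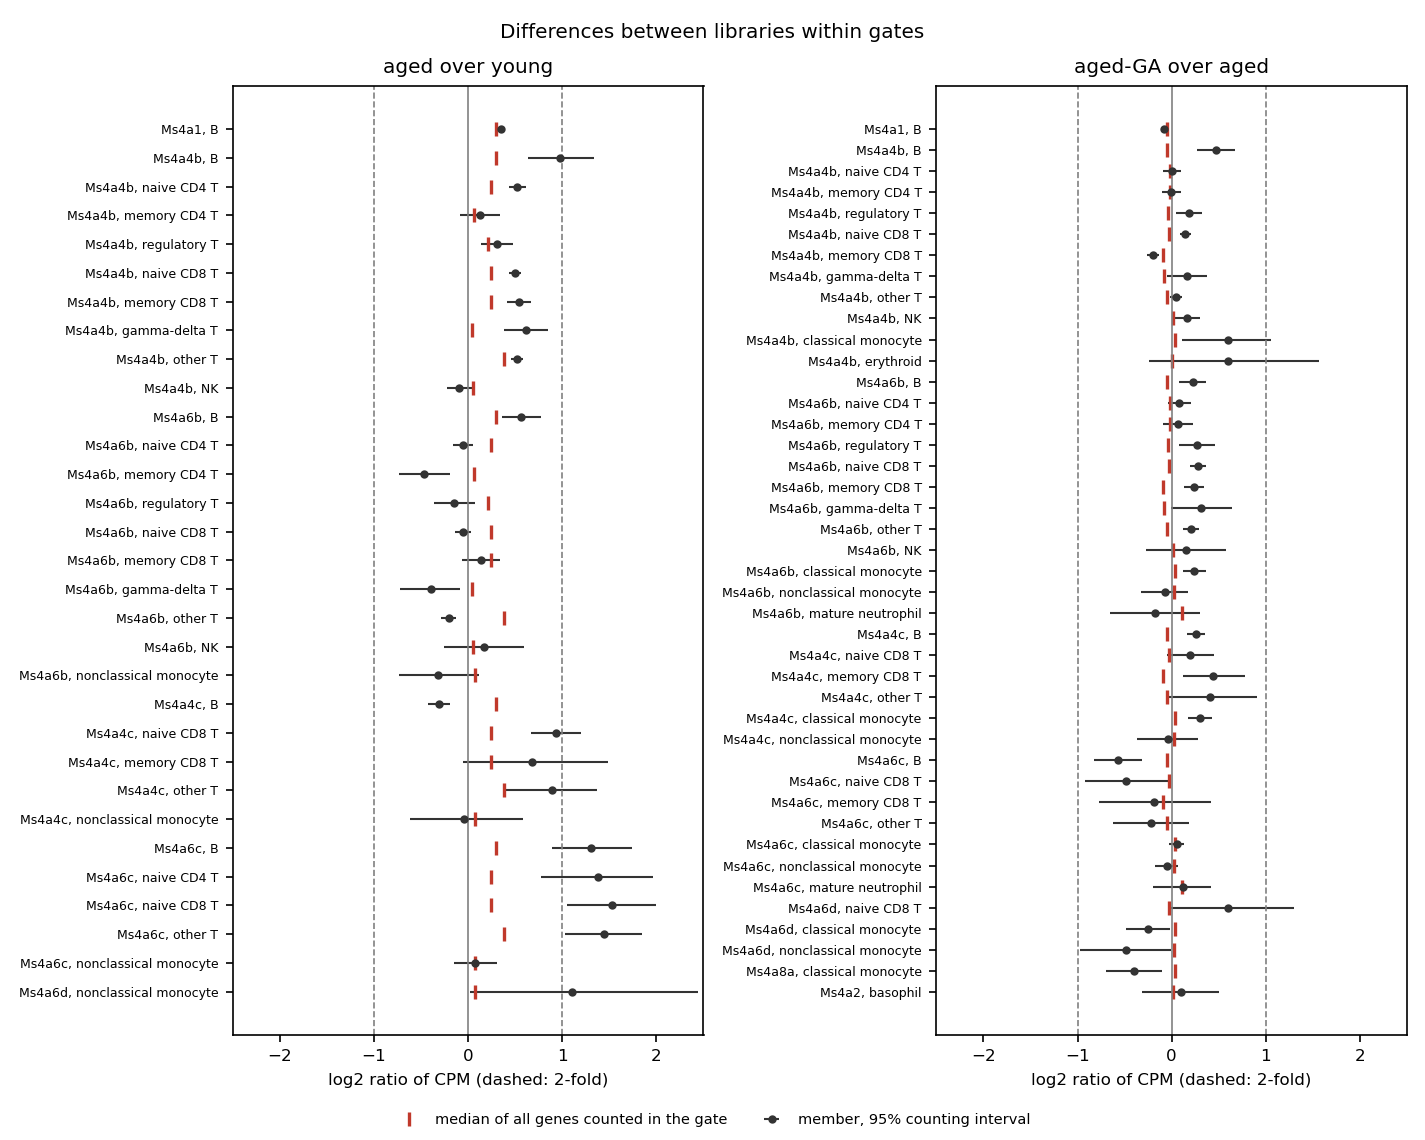
Log2 ratios of aged over young and of aged-GA over aged (x axis) for members with at least 100 UMIs over both libraries of a gate, with exact conditional 95% intervals that cover counting error only and the median of all genes in red. Most points lie within 1 log2 unit of 0, and Ms4a6c in lymphocyte gates lies above 1 in aged over young.

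The comparison of aged-GA with aged cells asks what differed after the treatment, and shares its aged library with the comparison above. Of 42 pairs of member and gate over 8 members, 0 were at least 2-fold higher and 0 at least 2-fold lower. Over the same 14 gates 0.289% of all pairs of gene and gate were that much higher and 0.395% that much lower. Ms4a1 in B cells differed by −0.08 [−0.11–−0.05] on the log2 scale. Ms4a4c was higher in B cells by 0.26, in memory CD8 T cells by 0.44 and in classical monocytes by 0.30. Ms4a6b had its interval above 0 in 6 of 12 gates and below 0 in none, for example naive CD8 T cells at 0.28 and classical monocytes at 0.24. The median gene of those 2 gates was at −0.03 and 0.04. The share of all genes with an interval clear of 0 was not computed. Ms4a4b was at −0.20 [−0.26–−0.13] in memory CD8 T cells and at 0.15 in naive CD8 T cells. Ms4a6c fell by 0.57 in B cells and by 0.48 in naive CD8 T cells, where Lyz2 was also lower. Lyz2 fell elsewhere too, from 189 UMIs in 360 memory CD8 T cells to 106 UMIs in 600. In other T cells it fell from 341 UMIs in 626 cells to 156 UMIs in 878. In those gates Ms4a6c was at −0.19 and −0.22, with intervals that held 0. In classical monocytes Ms4a8a was at −0.40 and Ms4a6d at −0.25. Ms4a2 in basophils was at 0.10, with an interval that held 0.

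Ms4a4c was examined beside 12 genes of the interferon response, since the gene is known as interferon-inducible. B cells were split by how many of the 12 had a UMI. In cells with at least 3, Ms4a4c was at 223 CPM in the young, 160 in the aged and 173 in the aged-GA library, and in cells with none at 112, 90.2 and 115. The log2 ratios were 0.99 [0.65–1.31], 0.83 [0.56–1.09] and 0.59 [0.40–0.78], while the median gene was at 0.07, −0.05 and −0.01. Cells with 1 or 2 of the genes lay near those with none, at 127, 101 and 116 CPM. The split moved with depth: young cells with at least 3 had a median of 3764.5 UMIs and those with none 3318, and aged cells 3587 and 2954. Ms4a1 also differed, by 0.40, 0.39 and 0.27. In aged B cells Ms4a6c was at 1.00 [0.31–1.65] and Ms4a4b at 0.65 [0.04–1.22], but in the aged-GA library the intervals of both held 0. In aged-GA naive CD8 T cells Ms4a6c went the other way, at −1.39 [−2.27–−0.44] from 37 and 16 UMIs. Its intervals in young and aged naive CD8 T cells held 0. In memory CD8 T cells Ms4a4c was at 91.7 against 29.5 CPM in the aged and 94.7 against 44.1 in the aged-GA library, while Ms4a4b differed by −0.25 and −0.18. The lower values rest on 8 and 15 Ms4a4c UMIs. In the young memory CD8 gate Ms4a4b was at 0.48 [0.14–0.84] and Ms4a6b at 0.86 [0.29–1.47], from 17 cells on each side. Ms4a4c had only 3 and 1 UMIs there. In naive CD8 T cells the Ms4a4c log2 ratio was 0.78 [0.27–1.31], 0.53 [−0.47–1.71] and 0.55 [−0.01–1.15], the last 2 with intervals that held 0. In aged classical monocytes, Ms4a4c was at 550 CPM in the 531 cells with at least 3 of the genes and at 358 in the 98 cells with 1 or 2.

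The interferon genes themselves were also compared between libraries. In B cells, 8 of the 12 had enough UMIs to compare aged with young, and 0 were past 2-fold in either direction. Of all genes there, 5.93% were at least 2-fold higher and 0.847% at least 2-fold lower. The median log2 ratio of the 8 was 0.38 beside 0.29 for all genes. Bst2, an antiviral membrane protein, went from 72.2 CPM in the young library to 80.3 in the aged. In naive CD8 T cells 8 were compared and 0 were past 2-fold, where 3.68% of all genes were that much higher and 0.819% that much lower. The median of the 8 was 0.46 beside 0.24, and Bst2 was at 109 and 179 CPM. In aged-GA over aged B cells 10 were compared and 0 were past 2-fold, where 0.168% of all genes were that much higher and 0.293% that much lower. The median of the 10 was −0.23 beside −0.05. In these 3 comparisons Ms4a4c was at −0.31 in B cells and 0.93 in naive CD8 T cells for aged over young, and at 0.26 in B cells for aged-GA over aged. Whether the interferon response bears on these Ms4a4c differences was not tested. Of the 6 partner genes of the receptors, 5 were compared in B cells, and Fcer1g alone was past 2-fold in aged over young, with a log2 ratio of 3.86 [3.33–4.45].

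The genes whose levels followed each member most closely were found by Pearson's r of log2(CPM + 1) over the 41 points of gate and library, among 11831 genes outside the marker lists. These points share libraries and gates, so r is a description. Ms4a1 went with Fcrla, a B cell Fc receptor-like gene (r = 0.953), and with the light-chain genes Iglc2 and Iglc1 (0.909 and 0.907). Ms4a4b went with Zap70 (0.963), Cd247 (0.960) and Gata3 (0.959), respectively the kinase, the zeta chain and a transcription factor of T cells. Ms4a6b went with Otulinl (0.915), Gpr132 and Sntb1 (both 0.894). Ms4a4c went with Ctss, a lysosomal protease of antigen-presenting cells (0.860), and Ms4a6c with Rras (0.884), Cd302 (0.873) and F10 (0.871), the last encoding coagulation factor X. Ms4a2 went with Grm6 (0.952) and Npl (0.924), Ms4a7 with Serpinb8 (0.920), and Ms4a8a with Ctdspl (0.899). The nearest gene to Ms4a6d was its relative Ms4a6c (0.861). Among members, Ms4a4b with Ms4a6b had an r of 0.816 and Ms4a6c with Ms4a8a 0.785, but Ms4a4b with Ms4a4c had −0.02 and Ms4a6b with Ms4a6c 0.391. The last 2 pairs are those with the most alike upstream bases among the 8 members matched to a promoter. Ms4a6d had no promoter to compare with that of Ms4a6c.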

How the data were processed

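Peripheral blood mononuclear cells of 1 young, 1 aged and 1 aged-GA library were analysed. The deposited matrices hold whole-number UMI counts per gene and barcode, made by the authors with Cell Ranger (headers name cellranger 5.0.0; the methods name another version) on mm10 and not normalized. Total counts were 58894294, 82260961 and 98155671 UMIs over 10842, 16038 and 17332 barcodes.

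Following the study's methods, a cell was kept if it had 200 genes or more, no more than 90% of the gene number of the richest cell, and 7.5% mitochondrial UMIs or fewer. A cell was gated to the class with the largest fraction of its markers found, at least 3 of them. Ambient myeloid markers (S100a8, S100a9, Lyz2) counted from 10 UMIs and haemoglobin from 50. Cells in which an unrelated class had at least 3 markers and 0.5 of the leading fraction were left out as mixed (531, 1616 and 1786 cells), and 13, 19 and 23 cells had no gate. These limits were set after the data were seen. All members and gene lists were chosen with earlier results of these data known. Doublets called by Scrublet (545, 476 and 673 cells) were kept, and left out as an alternative.

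UMIs were summed per gate and library for gates of at least 30 cells. Levels have exact Poisson 95% intervals, ratios exact conditional binomial ones and need at least 100 UMIs over both libraries, and shares of cells were taken after thinning to 500 UMIs, which excluded no cell. A count of 0 allows up to 3 counts. Past 2-fold means a log2 ratio of at least 1 in size, given beside the percentage of all genes past it, except for the alternatives below. No test was run, since there was 1 library per group. Some genes of the lists are not reported here. Genes named are the members, other Ms4a genes, 12 interferon genes, 6 partners, and for each member the 3 genes of highest Pearson correlation. Gating, ratios and intervals were tested on simulated data. Python 3.11.15, numpy 2.4.6, scipy 1.17.1, pandas 2.3.3, scanpy 1.11.5, biopython 1.88 and matplotlib 3.10.9 were used, with RefSeq promoters (GRCm38.p6) and GENCODE positions (GRCm38).

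Alternatives were a minimum of 500 genes, no mitochondrial limit, 1 more marker per gate, no doublets, UMIs outside haemoglobin as denominator, a minimum of 30 UMIs, 1 CPM added, and thinning to 1000 UMIs. Keeping the mixed cells, apart from those with equal leading fractions, was added after seeing the data.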

Additional observations from a re-analysis of the deposited data

Results flagged for a closer look

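In 3 cases a member moved in opposite directions in 2 gates, with both intervals on their own side of 0. How many other genes did so was not computed. The differences between gates were not tested, since each group had 1 library. Ms4a4c, aged over young, had a log2 ratio of 0.93 in naive CD8 T cells and −0.31 in B cells. Ms4a6b, aged over young, was at 0.56 in B cells and −0.47 in memory CD4 T cells. Its level in B cells was only 31.2 and 46.1 CPM, and the young memory CD4 gate held 31 cells with 141 Ms4a6b UMIs. Ms4a4b, aged-GA over aged, was at 0.60 in classical monocytes and −0.20 in memory CD8 T cells, and its level in classical monocytes was only 34.4 and 51.9 CPM.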

How the results depend on the processing

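For 21 pairs of member and library, the gate with the highest level was the same under each of the 5 alternatives planned for it, and it was the same for 19 when mixed cells were kept. Then Ms4a4b in the aged-GA library led in memory CD8 T cells (1387 against 1383 CPM in memory CD4) and Ms4a4c in the young library in nonclassical monocytes (121 against 118 in B cells). The number of pairs at least 2-fold higher in aged than young was 5, and 11 with mixed cells kept or 9 with at least 30 UMIs. The latter added Ms4a4c in naive CD4 cells (1.77 on the log2 scale), Ms4a6d in naive and memory CD8 cells (1.11 and 1.51) and Ms4a1 in other T cells (1.14). For aged-GA over aged, keeping mixed cells gave 4 pairs at least 2-fold lower, Ms4a6c in B cells (−1.04) and Ms4a1, Ms4a4c and Ms4a6c in erythroid cells (−1.13, −1.01 and −1.37). A minimum of 30 UMIs gave 1 higher, Ms4a6c in regulatory T cells (1.30), and 2 lower, Ms4a8a in nonclassical monocytes (−2.41) and Ms4a6c in erythroid cells (−1.72), against 0 and 0. The share of all genes past 2-fold was not computed under these settings. These counts therefore cannot show whether members changed more than other genes did. The cause of the changes with mixed cells was not tested. Of 126 levels recomputed, 111 stayed within the counting interval, as did 301 of 310 ratios. All 12 shares of cells rose beyond it at 1000 UMIs, which show more cells by construction. No paired analysis was possible because each group had 1 library and no result came from a test, and for the same reason no replicate could be left out.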

Other observations

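The other 9 genes with an Ms4a symbol had few or no UMIs, apart from Ms4a4a. Ms4a4a, a macrophage gene, had 38.8, 35.5 and 25 CPM in nonclassical monocytes of the young, aged and aged-GA libraries. In classical monocytes it had 24.3 and 13 CPM in the aged and aged-GA libraries, with intervals that overlapped those of the nonclassical gate. Ms4a15 had 8, 4 and 6 UMIs in the 3 libraries, and 7, 4 and 5 of them were in NK cells. Ms4a4d had 29, 30 and 43 UMIs. Ms4a12 had 2 UMIs in the young library alone, Ms4a14 had 1 in the aged-GA alone, and Ms4a5, Ms4a10, Ms4a13 and Ms4a18 were at 0 in all 3 libraries.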
